A study of Mus musculus with 16 samples.

Results

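The sterol and fatty acid synthesis genes were a list of 33 genes, of which 29 were measured among the 17097 genes with a single-gene probe set. Where a gene had several such probe sets, the brightest on average across the 16 arrays stood for it. The cholesterol branch held 15 measured members, from Hmgcs1 to Dhcr7. The fatty acid branch held 9, from the acetyl-CoA suppliers Acly and Acss2 to the desaturases Fads1 and Fads2. The remaining 5 were the regulators Srebf2, Scap, Insig1 and Insig2 and the sterol carrier Stard4. Pmvk, Srebf1, Acat2 and Scd2 had no single-gene probe set in the table used and were not analysed here.

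The arrays profiled RNA of sorted naive T cells of 2 genotypes, wild-type and Tsc1-deficient, all on a C57BL/6 background. Unstimulated CD4 cells of each genotype (0 h) and CD4 cells kept for 4 h on plate-bound antibodies to CD3 and CD28 had 3 arrays each. Unstimulated CD8 cells of each genotype had 2 arrays each. The labels give neither the Cre or other means of Tsc1 deletion, nor the animals' age, nor whether arrays came from separate mice, so p-values measure only the spread between these arrays. The treatment text names HIF1a-deficient mice in 1 sentence, whereas every title and genotype entry names Tsc1, and the latter were followed.

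Cholesterol is built from acetyl-CoA through mevalonate and farnesyl diphosphate to squalene, which is then closed to lanosterol and trimmed to cholesterol. Fatty acids branch off at acetyl-CoA carboxylase and are lengthened, extended and desaturated by separate enzymes. Both routes are transcribed under SREBP factors, which Scap escorts out of the endoplasmic reticulum when sterol is low and Insig proteins hold back when sterol is high. Tsc1 is a subunit of the complex that restrains mTORC1, a kinase known to favour SREBP processing, and activated T cells need both routes for new membrane.

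The 250 bases before the annotated start (RefSeq, GRCm38.p6) are shown for 6 members that stand for both branches and their regulation. In capitals are matches on either strand to CCAAT (the NF-Y box, read ATTGG on the other strand), to TCACNCCAC (a form of the sterol response element) and to CACGTG (an E-box). In Fasn the last 2 matches share letters, and no other matches in these windows overlap. Hmgcs1 (chr13:119690101-119690350, plus strand) opens the mevalonate route, and Mvd (chr8:122443423-122443672, minus strand) closes its phosphorylated part. Cyp51 (chr5:4104698-4104947, minus strand) demethylates lanosterol. Insig1 (chr5:28071162-28071411, plus strand) is the feedback inhibitor. Fasn (chr11:120824548-120824797, minus strand) makes palmitate, and Elovl6 (chr3:129532136-129532385, plus strand) lengthens it.
Hmgcs1: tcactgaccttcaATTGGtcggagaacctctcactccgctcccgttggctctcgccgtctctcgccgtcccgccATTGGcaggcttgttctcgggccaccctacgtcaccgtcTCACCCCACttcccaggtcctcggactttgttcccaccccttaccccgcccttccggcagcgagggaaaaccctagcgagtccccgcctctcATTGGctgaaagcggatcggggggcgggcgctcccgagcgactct
Mvd: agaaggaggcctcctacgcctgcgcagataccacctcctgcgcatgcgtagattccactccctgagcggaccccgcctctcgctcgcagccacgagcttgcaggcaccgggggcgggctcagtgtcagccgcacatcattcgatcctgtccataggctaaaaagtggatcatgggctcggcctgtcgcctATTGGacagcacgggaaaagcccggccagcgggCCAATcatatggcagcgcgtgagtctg
Cyp51: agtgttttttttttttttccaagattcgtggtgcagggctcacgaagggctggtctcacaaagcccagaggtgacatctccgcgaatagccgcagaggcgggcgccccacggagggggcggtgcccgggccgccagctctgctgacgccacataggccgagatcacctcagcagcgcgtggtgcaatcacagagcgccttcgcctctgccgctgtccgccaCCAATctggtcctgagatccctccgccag
Insig1: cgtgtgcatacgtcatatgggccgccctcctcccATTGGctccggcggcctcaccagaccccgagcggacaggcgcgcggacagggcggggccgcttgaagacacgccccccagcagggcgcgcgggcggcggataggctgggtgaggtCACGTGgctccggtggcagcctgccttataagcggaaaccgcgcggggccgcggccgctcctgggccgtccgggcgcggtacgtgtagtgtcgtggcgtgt
Fasn: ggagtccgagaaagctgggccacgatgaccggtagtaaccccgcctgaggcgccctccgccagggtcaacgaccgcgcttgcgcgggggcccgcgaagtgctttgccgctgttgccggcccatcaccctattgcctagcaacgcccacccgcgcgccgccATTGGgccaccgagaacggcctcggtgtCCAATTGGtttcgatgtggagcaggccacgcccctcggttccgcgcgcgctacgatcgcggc
Elovl6: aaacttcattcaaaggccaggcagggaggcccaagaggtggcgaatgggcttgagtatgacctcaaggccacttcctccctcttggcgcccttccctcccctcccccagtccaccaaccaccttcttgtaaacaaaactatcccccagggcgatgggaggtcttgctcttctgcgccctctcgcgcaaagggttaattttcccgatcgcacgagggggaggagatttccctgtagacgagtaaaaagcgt
The CCAAT letters stood in the window of every cholesterol-branch member in the promoter table (12 of 12), of 3 of 7 fatty acid members (Acss2, Elovl5 and Fasn) and of 3 of 4 regulators (Insig1, Insig2 and Srebf2). Among all 13605 tested genes in that table, 39.6% held them in at least 1 window, and of all 32851 windows 33.8% did. The 23 matched members had 28 windows, of which 18 (64.3%) held CCAAT. In Mvd the matches began 60 and 27 bases before the start, in Cyp51 29 bases before it, and in Fasn 90, 62 and 59 bases before it. TCACNCCAC stood in 1 of the 28 windows (Hmgcs1, 137 bases before the start) against 1.05% of all windows. CACGTG stood in 6 (21.4%) against 6.02% of all windows. The Elovl6 window held none of the 3. A match describes letters in a window and is not a measured binding site. Fdps, Fdft1, Sqle, Stard4, Scd1 and Fads1 were not matched in that table.

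Tsc1 itself was lower on the deficient arrays in all 3 conditions, by 0.83 ± 0.09 (SE; limma with Benjamini-Hochberg adjustment, adjusted p = 3.77e-05) in unstimulated CD4 cells, 1.06 ± 0.09 after stimulation and 0.55 ± 0.12 in CD8 cells on the log2 scale. A gene is said to have risen, fallen or been called where this adjusted p, computed over all 17097 genes in a fit of all 16 arrays, was under 0.05. Whether the arrays of 2 groups overlapped describes the same values as the call and is not separate evidence. The share of all genes without overlap was not computed. On 2 arrays the Gapdh 3′ probe set exceeded the 5′ one, a sign of RNA quality, by more than elsewhere: stimulated deficient CD4 array 1 (0.96) and deficient CD8 array 2 (0.64), against 0.02 to 0.40 on the other 14. Of 9 measured genes of dividing cells, 6 were called higher in deficient unstimulated CD4 cells, 8 after stimulation and 7 in CD8 cells. Their summed log2 signal was 6.57 to 6.77 on wild-type and 7.93 to 8.18 on deficient unstimulated CD4 arrays, 6.56 to 6.69 and 7.63 to 8.44 after stimulation, and 6.49 to 6.68 and 8.40 to 8.76 in CD8 cells. Of 10 neutrophil genes, 1, 4 and 0 were called higher in the same comparisons, with Elane, Mmp8 and Cxcr2 below the table's median signal (3.36) in every group. The summed neutrophil signal was 6.83 to 8.15 on wild-type and 8.20 to 10.3 on deficient unstimulated CD4 arrays, 6.46 to 7.21 and 8.53 to 10.2 after stimulation, and 6.97 to 8.38 and 8.70 to 9.83 in CD8 cells. Of 6 natural killer cell genes, 2, 2 and 1 were called higher, with Ncr1, Klrb1c and Klra8 below the table median in every group. Their summed log2 signal was 9.10 to 9.19 on wild-type and 10.4 to 10.7 on deficient unstimulated CD4 arrays and 7.55 to 7.76 against 8.08 to 8.72 after stimulation, and it overlapped in CD8 cells (11.8 to 11.9 against 11.7 to 11.9). Of 11 monocyte, macrophage or dendritic cell genes, 0, 3 and 0 were called higher, and the sums lay apart only after stimulation (6.76 to 6.95 against 7.22 to 7.44). Of 9 B cell genes, 1, 0 and 1 were called higher, and the sums lay apart after stimulation (6.91 to 6.98 against 7.17 to 7.40) and in CD8 cells (8.26 to 8.38 against 8.87 to 8.95). The part of these cells in the member changes was not tested, and in such bulk samples fewer cells of a type and less RNA per cell cannot be told apart. Cd4 and Zbtb7b were higher in CD4 cells, and Cd8a and Cd8b1 in CD8 cells, in both genotypes. Runx3, the other CD8 lineage marker, differed less at 0 h. It read 8.14 in CD4 and 8.46 in CD8 cells of the wild type, and 7.59 and 8.33 in deficient cells. Every lineage marker was above the table median in every group, the opposite lineage included. All 6 measured general T cell markers were above the median in every group. By genotype, 3 of these 6 were called lower in deficient cells at 4 h (median of the 6, -0.54), and 2 of 3 CD8 lineage markers were called lower in deficient unstimulated CD4 cells (median of the 3, -0.55).

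**Figure D1:**
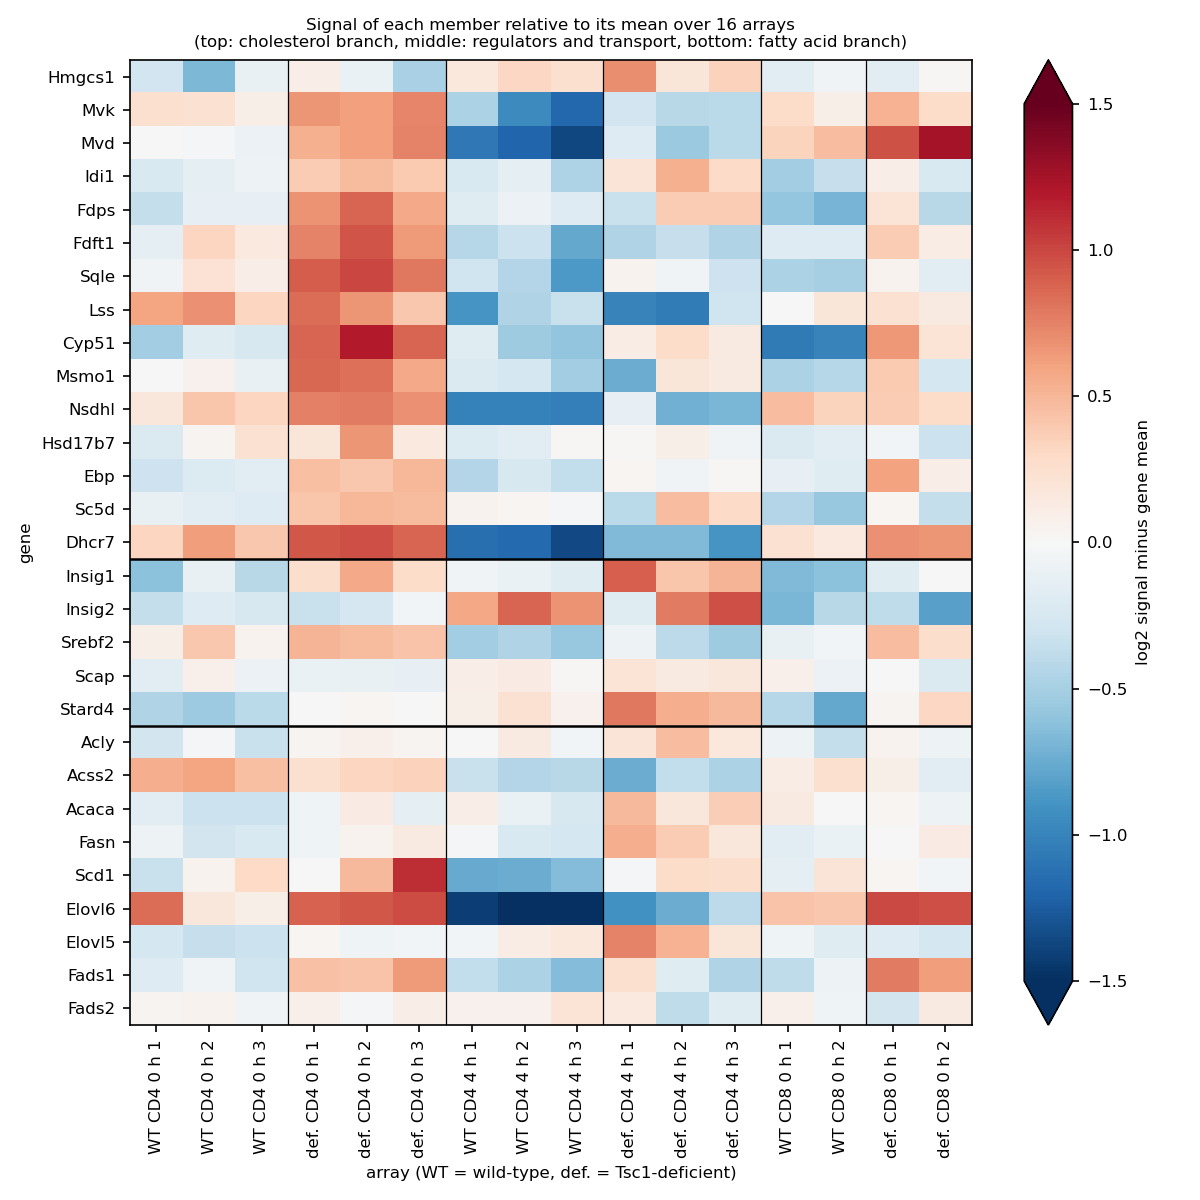
Log2 signal of each of the 29 measured members (rows) on each of the 16 arrays (columns), minus the member's own mean over the arrays; red is above and blue below that mean, and colours saturate beyond 1.5. Most cholesterol-branch rows are reddest on the 3 unstimulated deficient CD4 arrays, and Elovl6, Dhcr7, Mvd and Nsdhl are bluest on the stimulated wild-type arrays.

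In unstimulated CD4 cells, loss of Tsc1 went with higher signal of the cholesterol branch along its length. Of its 15 members 11 rose and 0 fell, with changes from 0.10 (Lss) to 1.29 (Cyp51) and a median of 0.62 on the log2 scale. Over all genes 3.96% were called higher and 1.87% lower, with a median change of 0.01. In the fatty acid branch 1 of 9 rose, with a median of 0.26, and among the regulators and Stard4 2 of 5 rose.

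Cyp51, the lanosterol demethylase, had the largest change of the members. Its log2 signal was 5.70, 6.05 and 5.99 on the wild-type arrays and 7.10, 7.42 and 7.10 on the deficient arrays, a 2.45-fold rise of 1.29 ± 0.14 (SE; limma, adjusted p = 2e-05). Every deficient array lay at least 1 log2 unit above every wild-type array. A second Cyp51 probe set rose by 0.97 (adjusted p = 0.0101 among all single-gene probe sets), and a dimmer one was not called.

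Of the 10 members from squalene synthase to cholesterol 7 rose, and the 6 besides Cyp51 rose by less. Squalene synthase, Fdft1, read 6.67, 7.13 and 6.95 on the wild-type and 7.55, 7.75 and 7.44 on the deficient arrays, a rise of 0.67 ± 0.13 (limma, adjusted p = 0.00597). Squalene epoxidase, Sqle, read 6.42, 6.70 and 6.59 against 7.39, 7.48 and 7.28, a rise of 0.81 ± 0.14 (limma, adjusted p = 0.00149). In both genes the lowest deficient array exceeded the highest wild-type array. The sterol isomerase Ebp read 8.11, 8.22 and 8.25 against 8.87, 8.83 and 8.92, a rise of 0.68 ± 0.11 (limma, adjusted p = 0.00106). For the methyl sterol oxidase Msmo1 the arrays read 7.38, 7.44 and 7.27 against 8.24, 8.21 and 7.95, a rise of 0.77 ± 0.20 (limma, adjusted p = 0.034). Its dimmer second probe set changed by 0.04 and was not called. Sc5d, which introduces a ring double bond, read 7.11, 7.06 and 7.02 against 7.64, 7.71 and 7.69, a rise of 0.62 ± 0.16 (limma, adjusted p = 0.0317). With its probe sets averaged, Sc5d was not called (limma, adjusted p = 0.276). Dhcr7, the reductase that finishes cholesterol, read 7.27, 7.58 and 7.36 against 7.88, 7.92 and 7.83, a rise of 0.47 ± 0.10 (limma, adjusted p = 0.00991). None of these 4 genes had overlapping arrays between the genotypes.

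Of the 5 mevalonate-route enzymes upstream, 4 rose. Farnesyl diphosphate synthase, Fdps, read 7.66, 7.89 and 7.89 on the wild-type and 8.69, 8.89 and 8.58 on the deficient arrays, a 1.88-fold rise of 0.91 ± 0.18 (limma, adjusted p = 0.00464). Mevalonate diphosphate decarboxylase, Mvd, read 5.33, 5.32 and 5.25 against 5.86, 5.95 and 6.08, a rise of 0.67 ± 0.12 (limma, adjusted p = 0.0018). The isomerase Idi1 read 6.90, 6.98 and 7.05 against 7.51, 7.60 and 7.51, a rise of 0.57 ± 0.12 (limma, adjusted p = 0.00725), and its second probe set rose by 0.77. In each of these genes the genotypes' arrays lay apart. Mevalonate kinase, Mvk, read 5.26, 5.25 and 5.11 against 5.69, 5.63 and 5.76 and rose by 0.49 ± 0.14, just past the threshold (limma, adjusted p = 0.0478). The 4 members not called were Hmgcs1 (0.20, adjusted p = 0.624, with signals of 3.08 to 4.44 over the 16 arrays, near the table median), Lss (0.10, adjusted p = 0.856), Nsdhl (0.44, adjusted p = 0.0593) and Hsd17b7 (0.31, adjusted p = 0.244).

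Among the regulators, the feedback inhibitor Insig1, itself a known SREBP target, read 6.77, 7.28 and 6.97 on the wild-type and 7.64, 7.95 and 7.66 on the deficient arrays. It rose by 0.74 ± 0.14 (limma, adjusted p = 0.00383), with no overlap. Stard4, a carrier that moves sterol between membranes, read 6.21, 6.11 and 6.26 against 6.66, 6.68 and 6.66, a rise of 0.47 ± 0.11 (limma, adjusted p = 0.0177), and its other probe sets rose by 0.55 and 0.99. Srebf2, which encodes the SREBP form most tied to cholesterol genes, read 7.85, 8.15 and 7.81 against 8.27, 8.23 and 8.18, a difference of 0.29 ± 0.12 that was not called (limma, adjusted p = 0.203). Insig2 read 6.84, 7.00 and 6.95 against 6.86, 6.94 and 7.15, and Scap differed by -0.06 ± 0.09; neither was called.

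In the fatty acid branch only Fads1, a desaturase of polyunsaturated fatty acids, passed the test, with 5.24, 5.39 and 5.15 on the wild-type and 5.88, 5.87 and 6.08 on the deficient arrays, a rise of 0.68 ± 0.15 (limma, adjusted p = 0.00991). Its dimmer second probe set differed by 0.21 and was not called. Elovl6 read 6.94, 6.26 and 6.19 against 6.98, 7.02 and 7.08, a difference of 0.57 ± 0.16 (limma, adjusted p = 0.0554); wild-type array 1 alone came close to the deficient arrays. Most of the branch nonetheless had differences of 1 sign. At an unadjusted p under 0.05, 7 of 9 were higher and 1 (Acss2, -0.23) lower, against 17.6% of all genes in either direction. Acaca, Fasn, Acly and Elovl5 lay 0.23 to 0.28 higher. Scd1 lay 0.52 higher but was not called (limma, adjusted p = 0.184). The cholesterol branch had 13 of 15 higher at that level. Without the 2 arrays of high Gapdh difference, which lie outside this comparison but enter its estimate of the spread, Nsdhl (adjusted p = 0.00316) and Elovl6 (0.0462) were called too, when 6.5% of all genes were called higher.

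Without 1 array at a time, 8 of the 14 calls stayed in all 16 fits: Mvd, Idi1, Fdps, Fdft1, Sqle, Cyp51, Ebp and Insig1. Dhcr7 lost its call without wild-type array 1 (adjusted p = 0.0575), and Fads1 without wild-type or deficient array 3 (up to 0.0546). Msmo1 lost it without any of 5 unstimulated CD4 arrays (all but deficient array 3; up to 0.128), Stard4 without any of 5 (all but wild-type array 3; up to 0.0833), Sc5d without any of 6 arrays (up to 0.107) and Mvk without any of 11 (up to 0.171).

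**Figure D2:**
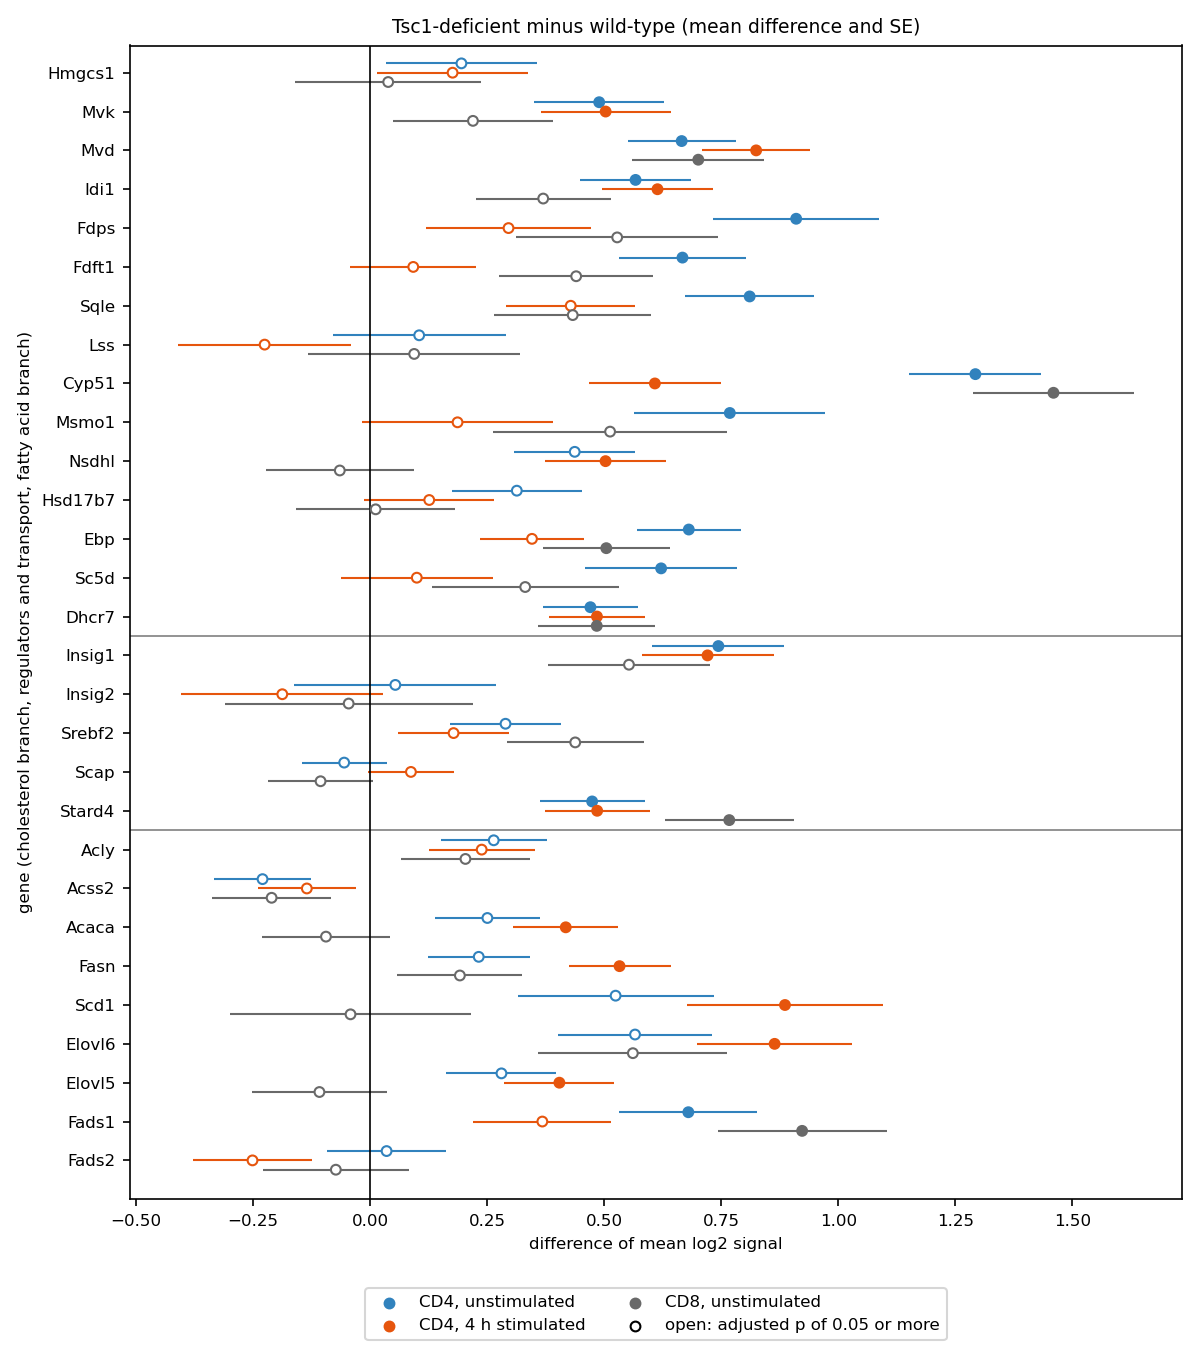
Difference of mean log2 signal, deficient minus wild-type, with its standard error, for each member in unstimulated CD4 (blue), stimulated CD4 (orange) and unstimulated CD8 cells (grey); filled points were called. The blue points of the cholesterol branch run from 0.10 to 1.29, and the orange points of Acaca, Fasn, Scd1, Elovl6 and Elovl5 are the filled ones of the fatty acid branch.

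After 4 h of stimulation, both branches held members that were higher in the deficient cells. In the cholesterol branch 6 of 15 rose, with a median of 0.35, and in the fatty acid branch 5 of 9 rose, with a median of 0.40. Insig1 and Stard4 rose as well, and 0 members fell. Over all genes 5.59% were called higher and 3.86% lower, with a median change of -0.00071.

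The fatty acid enzymes called here run from the committed step to elongation. Scd1, the desaturase that makes oleate, read 3.68, 3.68 and 3.78 on wild-type arrays and 4.40, 4.70 and 4.69 on deficient arrays, a rise of 0.89 ± 0.21 (limma, adjusted p = 0.0121). Elovl6 read 4.68, 4.39 and 4.57 against 5.18, 5.35 and 5.70, a rise of 0.86 ± 0.16 (limma, adjusted p = 0.00283), and its second probe set rose by 0.86 too. The wild-type Scd1 signals lay close to the table median, so that rise starts from a dim probe set. Fatty acid synthase, Fasn, read 8.16, 7.94 and 7.91 against 8.71, 8.56 and 8.34, a rise of 0.53 ± 0.11 (limma, adjusted p = 0.00456). Acetyl-CoA carboxylase, Acaca, read 6.47, 6.28 and 6.14 against 6.86, 6.55 and 6.75, a rise of 0.42 ± 0.11 (limma, adjusted p = 0.0251). The Acaca call was lost with its probe sets averaged, and over all alternative fits its change ran from 0.21 to 0.50. Elovl5, an elongase of polyunsaturated chains, read 10.62, 10.78 and 10.81 against 11.41, 11.18 and 10.84, a rise of 0.40 ± 0.12 (limma, adjusted p = 0.0387). The arrays of all 5 genes lay apart between the genotypes, although for Elovl5 by a narrow gap. Fads1 read 5.07, 4.96 and 4.79 against 5.68, 5.25 and 4.99 and was not called (0.37, adjusted p = 0.148).

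In the cholesterol branch Mvd changed most, with 4.26, 4.15 and 3.96 on wild-type arrays and 5.14, 4.77 and 4.93 on deficient arrays, a rise of 0.82 ± 0.12 (limma, adjusted p = 0.000215). Idi1 read 6.90, 6.98 and 6.67 against 7.31, 7.66 and 7.42, a rise of 0.61 ± 0.12 (limma, adjusted p = 0.00291). Both genes lay apart between the genotypes, as at rest. Cyp51 read 6.05, 5.70 and 5.63 against 6.34, 6.50 and 6.37, a rise of 0.61 ± 0.14 (limma, adjusted p = 0.0105). Dhcr7 read 5.82, 5.79 and 5.59 against 6.29, 6.29 and 6.07, a rise of 0.48 ± 0.10 (limma, adjusted p = 0.00559). Nsdhl, a dehydrogenase of the demethylation steps, read 5.62, 5.61 and 5.61 against 6.50, 5.90 and 5.94, a rise of 0.50 ± 0.13 (limma, adjusted p = 0.0202), with deficient array 1 far above the other deficient arrays. Mvk read 4.55, 4.06 and 3.85 against 4.74, 4.61 and 4.62 (0.50, adjusted p = 0.0299), and its second probe set differed by 0.05 and was not called. Insig1 read 7.33, 7.29 and 7.20 against 8.29, 7.80 and 7.90, a rise of 0.72 ± 0.14 (limma, adjusted p = 0.00333). Stard4 read 6.75, 6.89 and 6.72 against 7.45, 7.21 and 7.15, a rise of 0.49 ± 0.11 (limma, adjusted p = 0.0105), while its other probe sets differed by 0.14 and 0.45 and were not called. Srebf2 read 7.24, 7.30 and 7.19 against 7.68, 7.37 and 7.22, a difference of 0.18 that was not called (limma, adjusted p = 0.445).

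Stimulated deficient array 1, with the Gapdh difference of 0.96, stood apart from the other deficient arrays in several members. It read 7.68 for Fdps, against 8.39 and 8.39 on the other deficient arrays and 7.83, 7.93 and 7.82 in wild-type cells. It read 6.63 for Msmo1 (7.56 and 7.51 on the others) and 6.82 for Sc5d (7.68 and 7.51), below the wild-type arrays, which read 7.16, 7.11 and 6.86 for Msmo1 and 7.27, 7.24 and 7.19 for Sc5d. Without this array alone, 5 of 15 cholesterol-branch members and 3 of 9 fatty acid members were called higher, against 5.21% of all genes. Fdps (0.53, adjusted p = 0.039) was gained and Mvk, Nsdhl, Acaca and Elovl5 were lost, while Msmo1 (0.49, adjusted p = 0.0724) and Sc5d (0.36, 0.0568) were not called. Without deficient CD8 array 2 alone, which enters only the estimate of the spread, 7 of 15 and 5 of 9 were called higher, with Ebp gained. Over all genes 6.01% were then called higher and 4.49% lower. Without both arrays, 9 of 15 cholesterol-branch members and 3 of 9 fatty acid members were called higher, and 1 (Fads2, -0.39) lower, against 6.15% and 4.37% of all genes. Fdps (0.53, adjusted p = 0.00621), Msmo1 (0.49, 0.0142), Ebp (0.33, 0.027) and Sc5d (0.36, 0.0152) were then called, and Mvk (0.46, adjusted p = 0.0793), Acaca (0.35, 0.0805) and Elovl5 (0.27, 0.13) were not. The part of RNA quality in these differences was not tested further.

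Among fits without 1 array, Mvd, Idi1, Dhcr7, Insig1, Stard4, Fasn, Scd1 and Elovl6 kept their calls throughout. The count of members called fell from 13 to 8 without stimulated wild-type array 2 and to 8 without array 3. Cyp51 lost its call without either of these arrays (up to an adjusted p of 0.0582). Nsdhl lost it without any wild-type stimulated array or without deficient array 1 (up to 0.061), and Acaca without wild-type array 2 or 3 or deficient array 1 or 3 (up to 0.127). Mvk lost it without any stimulated array but wild-type array 1 (up to 0.16), and Elovl5 without any of 10 arrays (up to 0.15).

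In unstimulated CD8 cells, 6 members were higher without Tsc1 and 0 lower, against 3.64% and 2.18% of all genes. They were 4 of 15 in the cholesterol branch (median change 0.43), 1 of 9 in the fatty acid branch (median -0.04) and Stard4, with a median over all genes of -0.01.

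Cyp51 again changed most, with 5.17 and 5.23 on the wild-type arrays and 6.88 and 6.44 on the deficient arrays, a 2.75-fold rise of 1.46 ± 0.17 (limma, adjusted p = 8.6e-05). Its second probe set rose by 1.26. Mvd read 5.66 and 5.80 against 6.29 and 6.58, a rise of 0.70 ± 0.14 (limma, adjusted p = 0.00685). Stard4 read 6.24 and 5.89 against 6.70 and 6.97, a rise of 0.77 ± 0.14 (limma, adjusted p = 0.00306). In all 3 genes both deficient arrays exceeded both wild-type arrays. Fads1 read 5.06 and 5.37 against 6.21 and 6.07, a rise of 0.92 ± 0.18 (limma, adjusted p = 0.00556), whereas its second probe set differed by 0.09 and was not called. Dhcr7 read 7.18 and 7.09 against 7.63 and 7.61 (0.48, adjusted p = 0.0305), and Ebp read 8.30 and 8.23 against 9.02 and 8.52 (0.50, adjusted p = 0.0374). Insig1 read 6.72 and 6.76 against 7.20 and 7.39, a difference of 0.55 ± 0.17 that was not called (limma, adjusted p = 0.0743). Srebf2 read 7.64 and 7.72 against 8.22 and 8.02 (0.44, adjusted p = 0.0952), and Insig2 read 6.51 and 6.77 against 6.81 and 6.38.

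Deficient CD8 array 2, with the Gapdh difference of 0.64, read lower than deficient array 1 for Fdps (7.60 against 8.22), Msmo1 (7.11 against 7.77) and Sc5d (6.86 against 7.24). Without it and stimulated deficient CD4 array 1, 10 members were called higher, against 5.29% of all genes. Idi1 (0.54), Fdps (0.84), Msmo1 (0.84), Sc5d (0.52) and Srebf2 (0.54) were then called and Dhcr7 (0.50, adjusted p = 0.0631) was not. With 2 arrays a group, Cyp51 was the only member whose call stayed without each array in turn. The count fell from 6 to 2 without wild-type array 1 and to 3 without wild-type array 2. Without wild-type array 1, Mvd (up to an adjusted p of 0.0948, also lost without deficient array 2) and Fads1 (0.0999) were lost, and without wild-type array 2, Stard4 (0.0572). Dhcr7 was lost without any of the 4 CD8 arrays (up to 0.172), and Ebp without any of 7 arrays (up to 0.29).

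Across the 3 genotype comparisons 20 of the 29 members were called in at least 1, always as higher in deficient cells. Mvd, Cyp51, Dhcr7 and Stard4 were called in all 3. The shares of all genes called in at least 1 or in all 3 were not computed, so these counts have no background beside them. These comparisons share no arrays. No member's genotype difference was called as unlike between CD8 and CD4 cells: 0 of 29 passed this test (limma), against 0.117% of all genes. At an unadjusted p under 0.05 there was 1 (Nsdhl, -0.50 ± 0.20, limma, adjusted p = 0.598), against 7.77% of all genes. For Cyp51 the difference between lineages was 0.17 with a 95% interval of -0.30 to 0.64, and for Mvd 0.04 with an interval of -0.35 to 0.42.

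**Figure D3:**
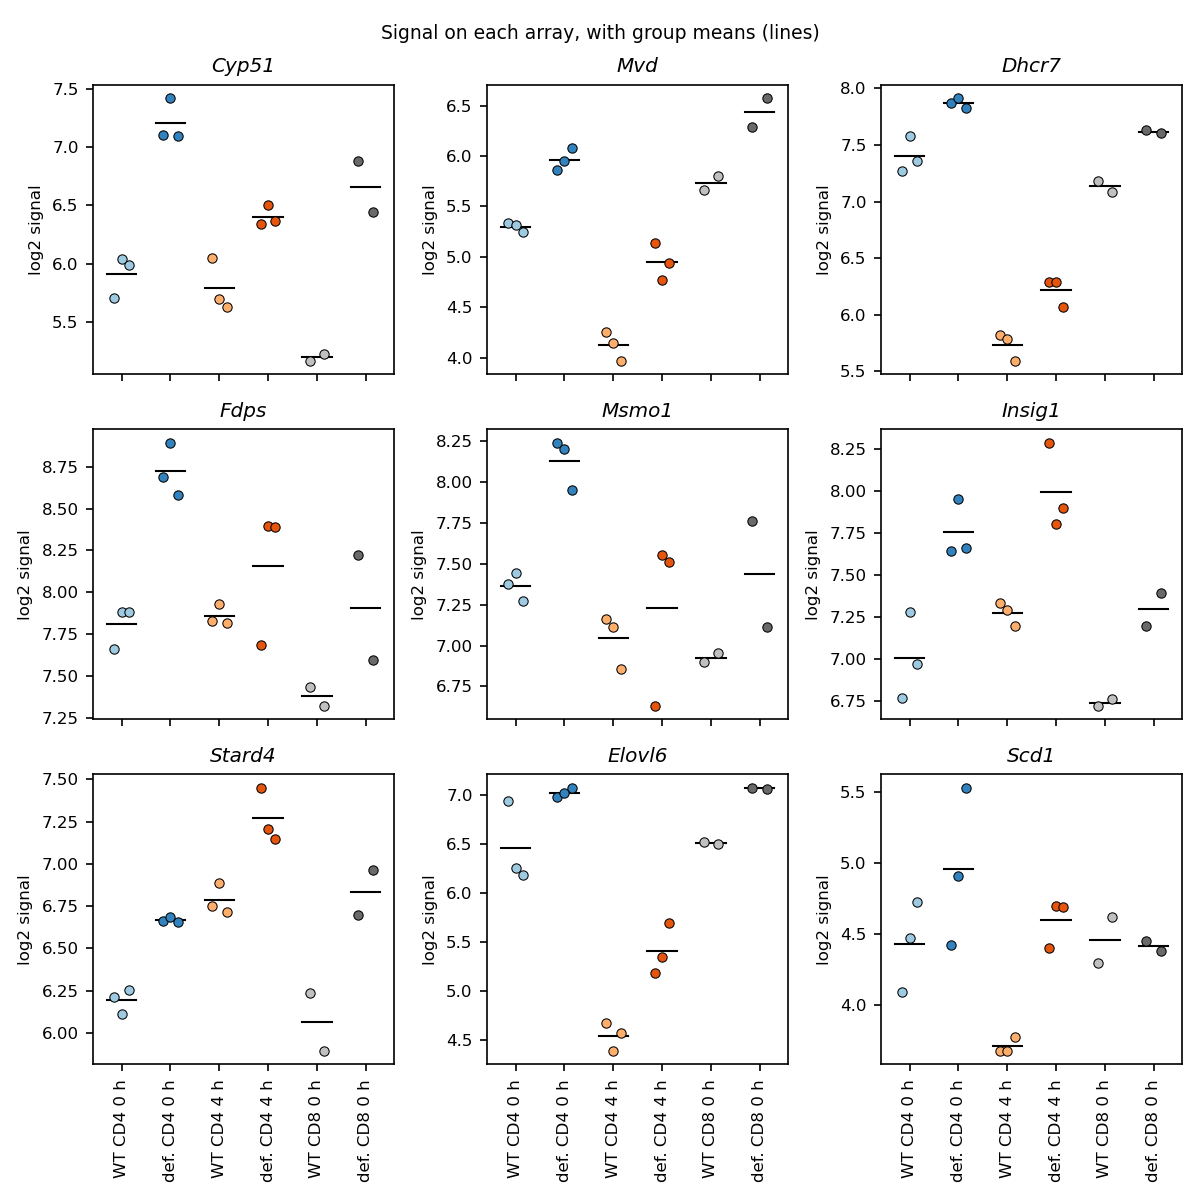
Log2 signal of 9 members on each array (points) with group means (lines), in the 6 groups of wild-type (WT) and Tsc1-deficient (def.) cells; the vertical axes differ and do not start at 0. Cyp51, Mvd, Dhcr7 and Stard4 lie higher on the deficient arrays in every pair of groups, and Fdps and Msmo1 each have 1 stimulated deficient array below the others.

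A large share of the cholesterol branch read lower in wild-type CD4 cells after 4 h of stimulation than in unstimulated ones. No group was kept for 4 h without the antibodies, so stimulation and time in culture cannot be told apart in either genotype. Of 15 members 7 fell and 1 rose, with a median of -0.32, against 19.1% of all genes lower and 12.8% higher and a median of -0.01. In the fatty acid branch 3 fell and 1 rose, with a median of 0.02, and among the regulators and Stard4 1 fell and 2 rose. Over all 29 members 11 fell and 4 rose.

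Dhcr7 fell from 7.27, 7.58 and 7.36 to 5.82, 5.79 and 5.59, a 3.19-fold drop of -1.67 ± 0.10 (limma, adjusted p = 1.55e-09). Nsdhl fell from 6.80, 7.04 and 6.95 to 5.62, 5.61 and 5.61, a drop of -1.32 ± 0.13 (limma, adjusted p = 3.92e-07). Mvd fell by 1.18 ± 0.12 and Mvk by 1.05 ± 0.14, with the array values given above. In all 4 genes every stimulated array lay below every unstimulated one, but the second Mvk probe set differed by -0.05. Lanosterol synthase, Lss, fell from 4.67, 4.76 and 4.41 to 3.19, 3.62 and 3.74 (-1.09 ± 0.19, limma, adjusted p = 0.000156), into the range of the table median. Fdft1 fell to 6.38, 6.48 and 6.03 (-0.62 ± 0.13) and Sqle to 6.19, 6.04 and 5.62 (-0.62 ± 0.14). The mevalonate-route members Idi1 and Fdps differed by -0.13 and 0.05 and were not called, nor were Cyp51 (-0.12), Msmo1 (-0.32), Ebp (-0.12), Sc5d (0.18) and Hsd17b7 (-0.13). Hmgcs1 alone in this branch rose, from 3.46, 3.08 and 3.63 to 3.90, 4.06 and 3.99 (0.59 ± 0.16, limma, adjusted p = 0.00849), at signals near the table median.

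In the fatty acid branch Elovl6 had the largest drop of all members, to 4.68, 4.39 and 4.57, a 3.77-fold fall of -1.92 ± 0.16 (limma, adjusted p = 8.63e-08). Its other probe sets fell by 1.98 and 1.09. Acss2, which makes acetyl-CoA from acetate, fell from 8.65, 8.70 and 8.56 to 7.78, 7.67 and 7.69 (-0.93 ± 0.10, limma, adjusted p = 1.97e-06), and its second probe set fell by 1.16. Scd1 fell from 4.10, 4.48 and 4.73 to 3.68, 3.68 and 3.78 (-0.72 ± 0.21, limma, adjusted p = 0.0127). Elovl5 rose from 10.40, 10.32 and 10.34 to 10.62, 10.78 and 10.81 (0.38 ± 0.12, limma, adjusted p = 0.0173). Acly, Acaca and Fasn, which carry citrate to palmitate, differed by 0.24, 0.19 and 0.02 and were not called. Of the regulators, Srebf2 fell to 7.24, 7.30 and 7.19 (-0.69 ± 0.12, limma, adjusted p = 0.000177) and Insig2 rose to 7.77, 8.07 and 7.87 (0.97 ± 0.22, limma, adjusted p = 0.00183). Other probe sets of both genes moved the same way. The brightest Stard4 probe set rose by 0.59 ± 0.11 and another by 1.01, but a further one differed by 0.08 and was not called. In all, 3 calls were each lost without 1 array or more: Hmgcs1 without unstimulated array 2 (adjusted p = 0.0609), Scd1 without unstimulated array 3 (0.0751), and Elovl5 without unstimulated array 2 or stimulated array 2 or 3 (up to 0.0689). Without the 2 arrays of high Gapdh difference, Msmo1 (adjusted p = 0.0226) and Fads1 (0.0444) were also called lower.

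**Figure D4:**
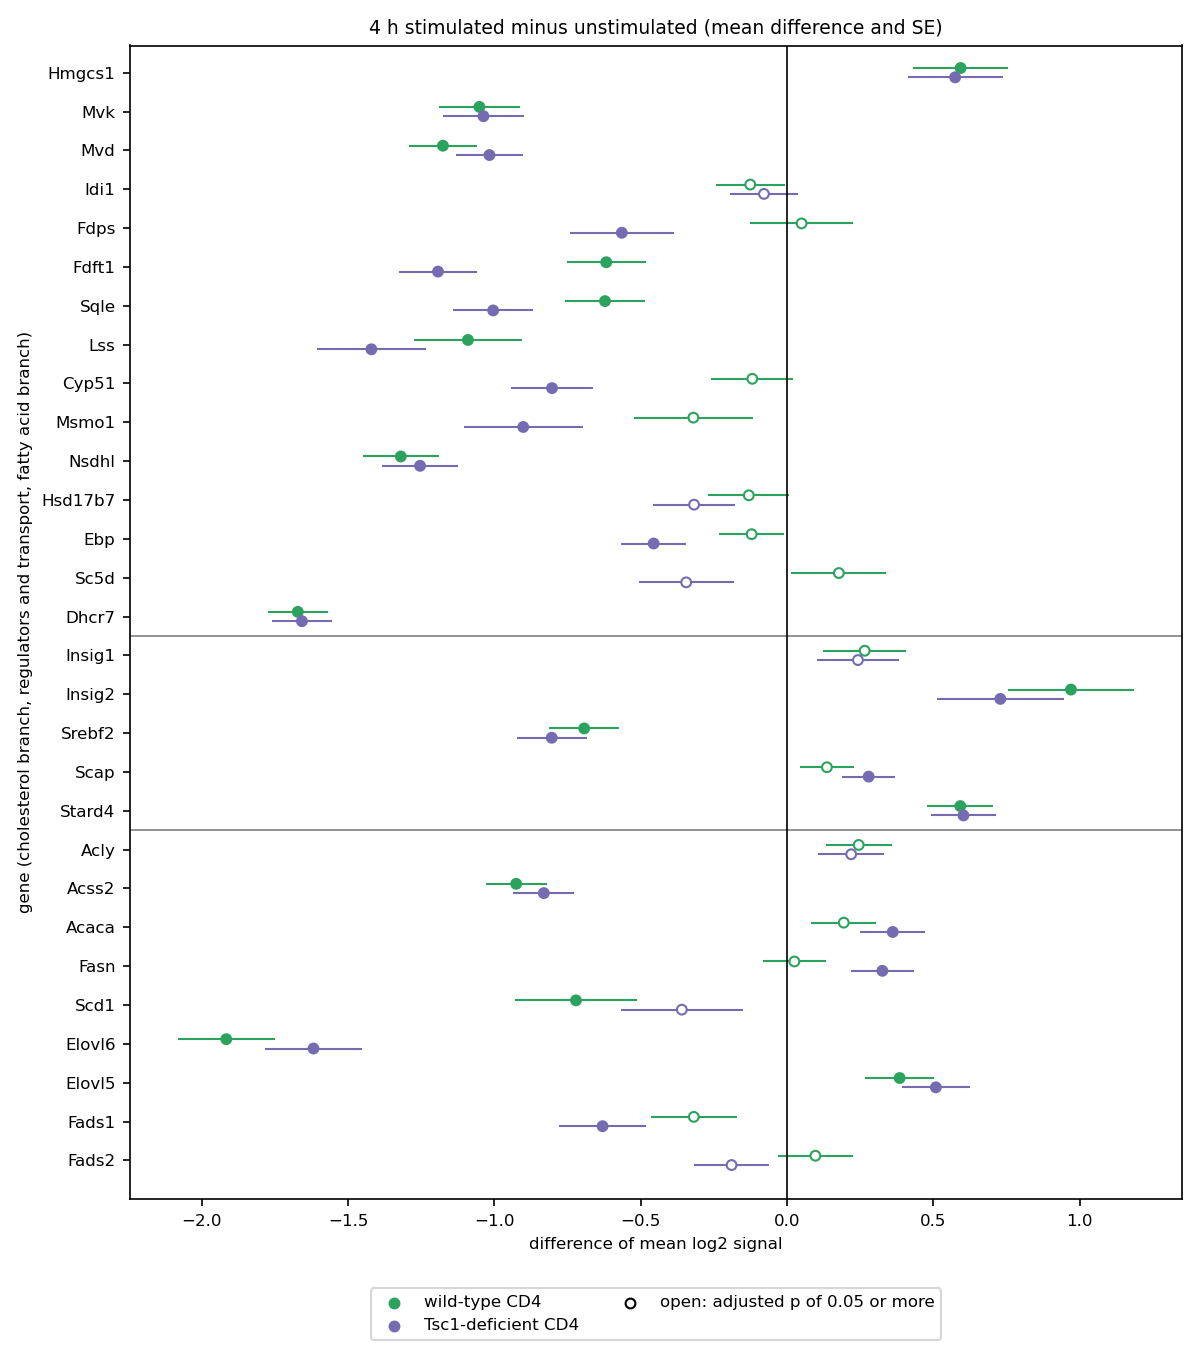
Difference of mean log2 signal, 4 h stimulated minus unstimulated, with its standard error, for each member in wild-type (green) and deficient (purple) CD4 cells; filled points were called. Elovl6 and Dhcr7 lie lowest in both genotypes, and the purple points of Fdps, Fdft1, Cyp51 and Msmo1 lie 0.57 to 0.68 left of the green ones, differences that were not called.

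In deficient CD4 cells more of the cholesterol branch was lower after stimulation by the count, 11 of 15, and 1 was higher, with a median of -0.90. All 10 members from squalene synthase onward had differences below 0, 8 of them called. Over all genes 21.5% were called lower and 13.8% higher, with a median of -0.02. The fatty acid branch had 3 lower and 3 higher of 9, and the regulators and Stard4 had 1 lower and 3 higher of 5.

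Dhcr7 fell by 1.66 ± 0.10 to 6.29, 6.29 and 6.07 (limma, adjusted p = 1.43e-09), and Lss by 1.42 ± 0.19, from 4.92, 4.74 and 4.49 to 3.08, 3.03 and 3.78. Nsdhl fell from 7.39, 7.41 and 7.32 to 6.50, 5.90 and 5.94 (-1.25 ± 0.13), Fdft1 to 6.35, 6.46 and 6.35 (-1.19 ± 0.13) and Sqle to 6.53, 6.43 and 6.17 (-1.004 ± 0.14). Mvk and Mvd fell by 1.04 ± 0.14 and 1.02 ± 0.12. Cyp51, which did not pass the test in wild-type cells, fell by 0.80 ± 0.14 (limma, adjusted p = 0.000179), and Ebp, from 8.87, 8.83 and 8.92 to 8.45, 8.36 and 8.43, by 0.46 ± 0.11 (limma, adjusted p = 0.00316). For Msmo1 the drop was -0.90 ± 0.20 (limma, adjusted p = 0.00178), but its second probe set rose by 0.69 (adjusted p = 0.0114 among all single-gene probe sets). The second Sc5d probe set likewise rose, by 0.74, while the brightest one differed by -0.34 and was not called. Fdps fell by 0.56 ± 0.18, a call lost without unstimulated deficient array 2 or stimulated deficient array 1 (up to an adjusted p of 0.11).

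Elovl6 fell from 6.98, 7.02 and 7.08 to 5.18, 5.35 and 5.70 (-1.62 ± 0.16, limma, adjusted p = 4.98e-07), Acss2 from 8.35, 8.42 and 8.45 to 7.37, 7.73 and 7.63 (-0.83 ± 0.10) and Fads1 by 0.63 ± 0.15 (limma, adjusted p = 0.00233). The second Fads1 probe set differed by 0.31 and was not called. Elovl5 rose from 10.69, 10.60 and 10.62 by 0.51 ± 0.12, Acaca from 6.32, 6.51 and 6.25 by 0.36 ± 0.11 and Fasn from 8.10, 8.23 and 8.30 by 0.33 ± 0.11. With its probe sets averaged, Acaca was not called (limma, adjusted p = 0.168). With arrays of consecutive codes in the titles as a block, Fasn was not called (limma, adjusted p = 0.0509) and Hsd17b7 was, as lower (-0.32, adjusted p = 0.0478). Without the arrays of high Gapdh difference, Acaca (0.29, adjusted p = 0.0699), Fasn (0.24, 0.107) and Hmgcs1 (0.43, 0.0633) were not called and Fads2 (-0.33, 0.0118) was, as lower. Srebf2 fell by 0.80 ± 0.12 and Scap rose from 8.44, 8.42 and 8.42 to 8.74, 8.67 and 8.71 (0.28 ± 0.09, limma, adjusted p = 0.0233). Insig2 rose by 0.73 ± 0.22 with overlapping arrays, since stimulated array 1 read 7.01 and the others 7.98 and 8.16. The brightest Stard4 probe set rose by 0.60 ± 0.11, whereas the second fell by 0.33 (adjusted p = 0.0296 among all single-gene probe sets), so its direction depends on the probe set. Insig1 differed by 0.24 and was not called. Apart from Fdps, 5 calls were lost without 1 array: Hmgcs1 (stimulated array 1 or unstimulated array 3, up to 0.0673), Insig2 (unstimulated 1 or stimulated 2 or 3, up to 0.0866), Scap (any deficient CD4 array but stimulated 2, up to 0.0627), Acaca (unstimulated 1 or 3 or stimulated 1, up to 0.0795) and Fasn (unstimulated 1 or 2 or stimulated 1 or 2, up to 0.114).

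The stimulation comparisons share their unstimulated arrays with the genotype comparison at rest, so their values are given side by side and not as separate evidence. Lower in both genotypes were 10 members: Mvk, Mvd, Fdft1, Sqle, Lss, Nsdhl, Dhcr7, Srebf2, Acss2 and Elovl6. Higher in both were 4: Hmgcs1, Insig2, Stard4 and Elovl5. The shares of all genes called lower or higher in both genotypes were not computed, so these counts have no background beside them. The test of the difference between the genotypes' responses called 0 of 29 members (limma), against 1.2% of all genes. At an unadjusted p under 0.05 there were 5, all of the cholesterol branch and all more negative in deficient cells: Cyp51 (-0.68, 95% interval -1.11 to -0.26, adjusted p = 0.131), Fdft1 (-0.57, adjusted p = 0.196), Fdps (-0.61, 0.324), Sc5d (-0.52, 0.384) and Ebp (-0.33, 0.42). These were 17.2% of the members, against 11.8% of all genes at that level in either direction. The median difference between the responses was -0.33 in the cholesterol branch, 0.12 in the fatty acid branch and -0.01 over all genes. The larger count of falling members in deficient cells was thus not matched by a called difference for any single member.

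Between unstimulated CD8 and CD4 cells, 2 of the 29 members were called in wild-type and 7 in deficient cells. In wild-type cells, CD8 cells read lower for Cyp51 (-0.72 ± 0.16, limma, adjusted p = 0.0114) and Sqle (-0.57 ± 0.15, limma, adjusted p = 0.0405), which read 6.01 and 5.99 in CD8 cells, against 5.04% of all genes called in either direction. In deficient cells 6 members of the cholesterol branch were lower in CD8 cells (Idi1, Fdps, Fdft1, Sqle, Cyp51 and Sc5d) and Mvd was higher, against 3.6% and 3.08% of all genes. Sqle, at 6.54 and 6.33, differed most (-0.95 ± 0.15, limma, adjusted p = 0.000784), and it was the only one of the 7 whose call stayed without each array in turn. Fdft1 read 7.19 and 6.91 and Idi1 7.23 and 6.90 in these cells. In the fatty acid branch 0 members were called in either genotype (limma). At an unadjusted p under 0.05 there were 2 of 9 in each, against 15.4% of all genes in wild-type and 19.7% in deficient cells. Of the 15 cholesterol-branch members, 6 were lower and 1 higher in wild-type CD8 cells at that level (46.7%). In deficient CD8 cells 11 were lower and 1 higher (80%). The branch medians were -0.28 and -0.48. Counts of called members ranged from 0 to 4 in wild-type and from 1 to 12 in deficient cells when 1 array was left out, the lowest without unstimulated wild-type CD4 array 2, wild-type CD8 array 1 or wild-type CD8 array 2 and without deficient CD4 array 2 or deficient CD8 array 2, respectively. The count of 12 was found without stimulated deficient CD4 array 1. Without both arrays of high Gapdh difference, 7 members were called in wild-type cells and 3 (Fdps, Sqle and Sc5d) in deficient cells. Of all genes, 7.74% and 5.11% were then called in either direction.

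Other genes of lipid metabolism are given by list, with the share of all genes called beside each comparison. Of 16 further sterol genes (uptake, efflux and trafficking among them) 0 were called by genotype in unstimulated CD4 or CD8 cells (limma), against 3.96% of all genes higher and 1.87% lower in CD4 and 3.64% and 2.18% in CD8 cells. At 4 h 5 were higher and 1 lower, against 5.59% and 3.86%, the highest being the fatty acid binding protein Fabp5 (0.79), Npc1 (0.63), which exports cholesterol from lysosomes, and the lipoprotein receptor Scarb1 (0.56). Of 28 further fatty acid genes, 0 rose and Elovl7 fell (-0.82) in unstimulated CD4 cells, 1 rose in CD8 cells (Elovl1, 0.56 ± 0.14, limma, adjusted p = 0.0306), and 3 rose at 4 h: Dgat1 (0.92 ± 0.15, limma, adjusted p = 0.000811), Elovl1 (0.42) and Acsl4 (0.37). Dgat1, which makes triglyceride, rose with stimulation in both genotypes, by 1.66 without and by 2.74 with the deletion, and that difference was called (1.08 ± 0.21, limma, adjusted p = 0.0176). Gpam, which starts glycerolipid synthesis, fell by 1.91 and 1.75. Of 18 fatty acid oxidation genes, 2 rose without Tsc1 in unstimulated CD4 cells (Decr1, 0.67, and Acads, 0.36), the same 2 in CD8 cells (0.48 and 0.57) and 5 at 4 h, led by Acadl (0.93 ± 0.12, limma, adjusted p = 9.58e-05). With stimulation 7 of the 18 fell in wild-type and 8 in deficient cells, led by Hadh (-2.20 and -1.81) and Eci1 (-1.94 and -1.66), and 3 rose in each. Over all genes 19.1% and 21.5% fell and 12.8% and 13.8% rose.

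Hsd17b7, Acly and Fads2 were called in none of the 9 comparisons, which also include both differences of differences. Acly read 9.99 to 10.81 and Hsd17b7 5.14 to 6.13 over the 16 arrays, and the brightest Fads2 probe set stayed below the table median on every array (2.05 to 2.64).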

How the data were processed

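RNA of 16 samples was hybridised to Affymetrix mouse arrays. The deposited log2 signals were made by the authors with RMA in Partek 6.5, per the submitters' processing notes, and were used as deposited (genome build: not given in the sources used here). Of 45141 probe sets, 104 are controls, 28898 name 1 gene, 551 several and 15588 none. The brightest single-gene probe set stood for each of 17097 genes, 7180 of which have more than 1; of the 29 measured members 18 do.

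Groups followed the labels' genotype, cell type and stimulation. Group means were compared with limma 3.58.1 (R 4.3.3) in 1 model of all arrays (10 residual degrees of freedom), with Benjamini-Hochberg adjustment within each of 9 comparisons and a threshold of 0.05. The pipeline was tested on simulated data. Alternatives covered probe sets, filtering, normalization, weights, arrays left out, a Gapdh covariate and thresholds. The number of arrays limits precision. Members and lists were chosen with earlier results of these data known, so no set test was run. Members called in at least 1 comparison with arrays that do not overlap, and the regulators, have their array values printed; of the other lists, up to 5 called genes per comparison may be named. Motifs were searched by exact match in the 250 bases before each RefSeq start. Figures used matplotlib 3.10.9.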

Additional observations from a re-analysis of the deposited data

How the results depend on the processing

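In the genotype comparison of unstimulated CD4 cells (14 members called), the stimulation comparisons (15 in wild-type, 22 in deficient cells) and both differences of differences (0), all alternatives other than leaving out 1 array kept the count within 1.5 times: 10 to 16, 13 to 17, 15 to 22 and 0 to 0. No called member changed direction in any alternative run. The genotype count in stimulated CD4 cells was 13 and became 6 with a 1.5-fold minimum and 6 at an adjusted p under 0.01. In CD8 cells it was 6 and became 2 when only the compared groups were fitted and 10 without the 2 arrays of high Gapdh difference. The lineage count in wild-type cells was 2 and became 1 with all single-gene probe sets, 4 with array weights, 4 with only the compared groups, 7 without the 2 arrays, 1 with the 1.5-fold minimum and 0 at 0.01. In deficient cells it was 7 and became, in the same order, 4, 3, 2, 3, 3 and 1, and 4 with the Gapdh difference as a covariate. Without 1 array the genotype counts ran from 10 to 16 in unstimulated CD4 cells, 8 to 14 after stimulation and 2 to 8 in CD8 cells. The stimulation counts ran from 14 to 16 in wild-type and 18 to 22 in deficient cells, the lineage counts from 0 to 4 and 1 to 12, and the differences of differences stayed at 0. The causes were not tested. The labels give the groups no shared replicate numbers and do not say that consecutive array codes in the titles mark a pair. With these codes as a block on the 12 CD4 arrays, the stimulation counts were 15 in wild-type cells, all 15 shared with the fit without it, and 22 in deficient cells, 21 of them shared: Fasn lost its call (adjusted p = 0.0509) and Hsd17b7 gained one (0.0478). Dim probe sets (Hmgcs1, Lss, Scd1, Fads2) have signals near or below the table median, and probe sets of Stard4, Msmo1 and Sc5d disagree on the direction with stimulation.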
